A study of Mus musculus with 5 samples.

Results

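The 9 genes described here encode enzymes that build and break down glycogen, and they were taken as every probe set whose only gene symbol in the platform annotation is Ugp2, Gys1, Gbe1, Pygl, Pygb, Pygm, Phka1, Phka2 or Phkb. That rule gave 18 probe sets of 45101 on the array (of 34958 with a single symbol), and 9 genes of 18194. RNA came from lung cells of newborn mice on postnatal day 2, sorted as positive for GFP from pups of the genotype SPC-GFP, whose parents were SPC-GFP mice mated with the outbred ICR strain. SPC is the common short name of surfactant protein C (gene Sftpc), and the labels do not describe the transgene further. There was 1 group of 5 biological replicates with 1 one-colour Affymetrix array each, and no treatment, other age, other genotype or unsorted lung was included. The labels do not state whether a replicate was 1 pup or several. Sample titles call the cells alveolar type 2 cells, whereas the series' design text calls them ciliated. The p-values below draw only on these 5 samples: on the spread between them and on variances fitted over all genes. Tests against background took the background level of each array, defined below, as known without error.

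Glycogen is a branched polymer of glucose that a cell can store and later break down for energy or for carbon. UDP-glucose is its precursor: glycogen synthase adds glucose to a chain, branching enzyme makes the branch points, and glycogen phosphorylase, switched on by phosphorylase kinase, releases glucose 1-phosphate. In the lung, the epithelial cells that become alveolar type 2 cells are known to hold large glycogen stores before birth and to lose them as they mature and make surfactant, whose phospholipids can be built from glycogen-derived carbon. Several steps exist as isoenzymes named for muscle, liver or brain, and which of them gave a signal in the sorted cells is a question these arrays can address.

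Array medians lay between 7.12 and 7.19 on the log2 scale. Each array had its own background, between 5.43 and 5.70, which is the 95th percentile of 77 receptor genes for odours, pheromones and taste. Alveolar type 2 markers were above it for 12 of 12 genes, with Sftpc at 14.67 ± 0.053 (log2 signal, SD, n = 5), and ciliated markers for 10 of 10, with Foxj1 at 7.91 ± 0.61. Markers of alveolar type 1 (10 of 10), club (8 of 8), fibroblast (9 of 10), smooth muscle (8 of 8), cardiac and striated muscle (10 of 12), endothelial (10 of 10), immune (12 of 12) and erythroid cells (3 of 6) were above background as well. These counts are to be read beside 74.6% of all genes above background, and alone they do not establish which cell types were present. In bulk samples a lower signal from fewer cells of a type and one from less RNA per cell cannot be told apart. Replicate 1 was highest in ciliated markers and in the bioB and bioC hybridisation controls (12.40 against 11.48 to 11.61 log2), and replicate 3 had the largest difference between the 3′ and 5′ control probe sets of Gapdh (1.67 against 1.27 to 1.60 log2) and the lowest fibroblast and muscle markers. Without replicates 1 and 3, the counts of enzyme genes, their probe sets and other pathway genes above background, given below, were unaltered at 9, 16 and 24.

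All 9 genes gave a signal above background. In limma's one-sided moderated test, fitted over all 18194 genes with Benjamini-Hochberg adjustment, 74.6% of genes were called above background, so a call by itself is common on these arrays. The mean differences from background ran from 2.85 log2 units for Pygm to 7.20 for Ugp2, and the highest adjusted p among the 9 genes was 9.37e-11 in that limma fit. Against a stricter background of 38 genes restricted to other organs, which 59.5% of genes passed, 9 of the 9 genes were also called. At the level of single probe sets, 16 of the 18 were called, against 71.4% of all probe sets with 1 symbol. The 2 exceptions both belong to Phka2. Signals of different probe sets depend on their own hybridisation, so the levels of the enzyme genes were not compared with each other. The same limit applies to the background, which comes from probe sets of other genes and is only an approximate floor.

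**Figure D1:**
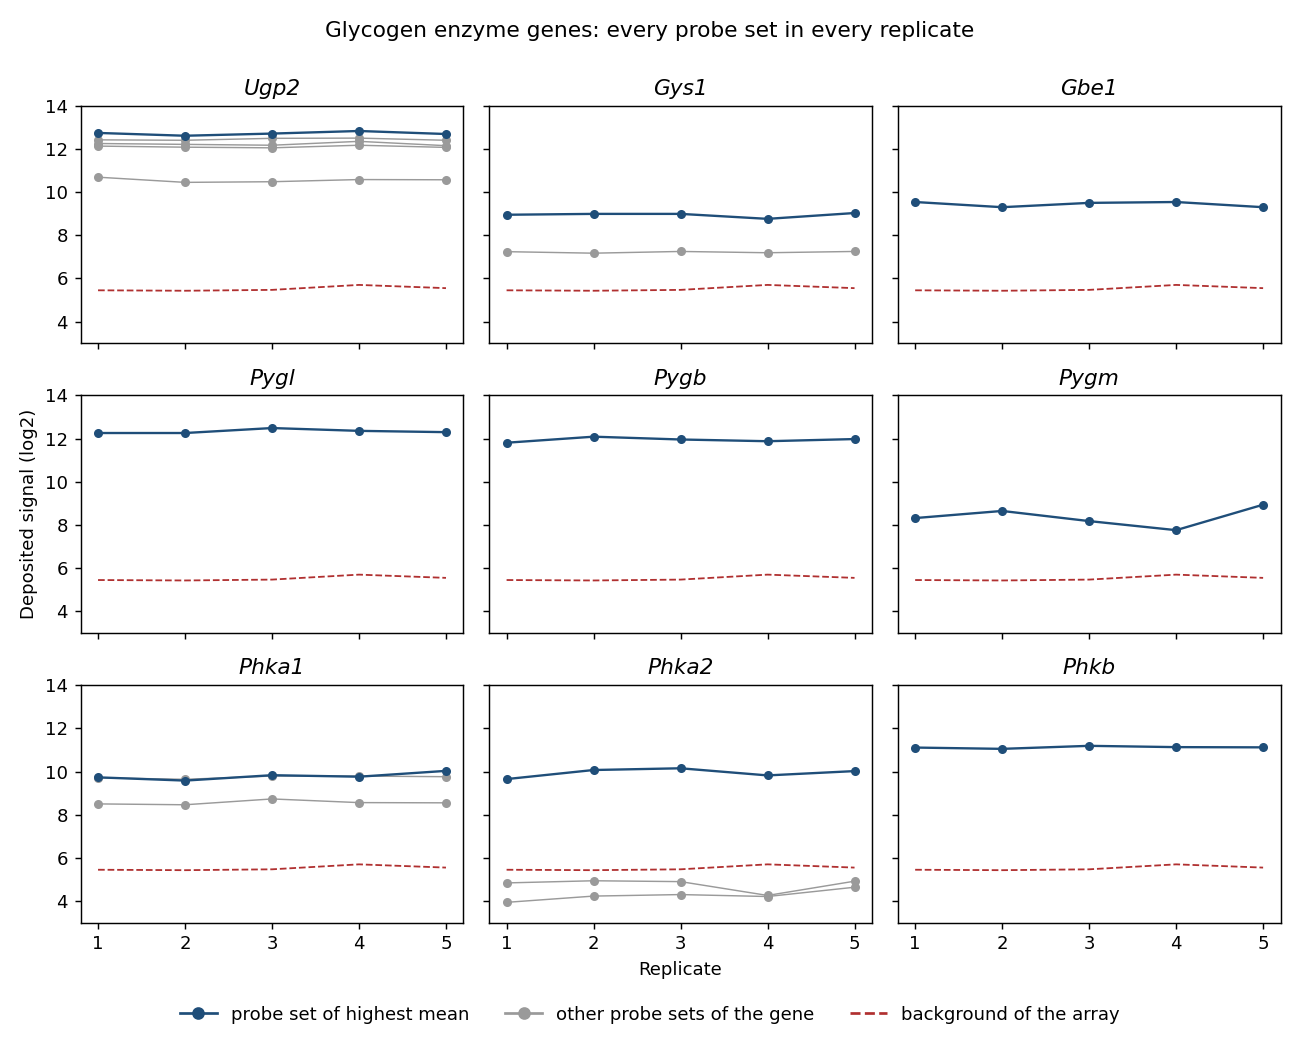
Deposited signal (log2, vertical axis) of every probe set of the 9 genes in replicates 1 to 5 (horizontal axis), 1 panel per gene; lines only join the points of a probe set, and replicates have no order. Pygm spans 7.76 to 8.94, whereas the blue points of the other 8 genes span at most 0.50 (Phka2), and 2 of the 3 probe sets of Phka2 lie under the dashed background.

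The 3 enzyme genes of glycogen synthesis had ranges of 1.16- to 1.21-fold over the replicates. Ugp2 encodes UDP-glucose pyrophosphorylase, which makes the UDP-glucose that the synthase uses. Its probe set of highest mean read 12.74, 12.61, 12.71, 12.83 and 12.69 log2 in replicates 1 to 5 (12.72 ± 0.079, SD, n = 5). The other 4 probe sets of Ugp2 averaged 12.44, 12.23, 12.10 and 10.55 log2. The ID of the one at 12.44 log2 ends in _x_at, which marks possible hybridisation to other transcripts. All 5 probe sets of Ugp2 were above background. Replicate 4 was the highest in 4 of these 5 probe sets, while the whole range of the highest one was 1.16-fold (0.22 log2).

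Gys1 encodes the glycogen synthase found in muscle and most other tissues. It read 8.95, 8.99, 8.99, 8.76 and 9.03 log2 in replicates 1 to 5 (8.94 ± 0.11), with replicate 4 the lowest and the other 4 close together. Its second probe set, whose ID ending (_s_at) marks possible hybridisation to other transcripts, averaged 7.22 ± 0.038 log2; it was above the receptor background and not above the organ-restricted one (a mean difference of -0.29 log2). Gbe1, the branching enzyme gene, had 1 probe set, at 9.54, 9.30, 9.50, 9.54 and 9.30 log2 (9.44 ± 0.13). Replicates 1, 3 and 4 lay above replicates 2 and 5, within a range of 1.19-fold.

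All 3 phosphorylase genes, each with 1 probe set, gave signal. Pygl, the liver type, read 12.26, 12.26, 12.49, 12.36 and 12.30 log2 in replicates 1 to 5 (12.33 ± 0.094), a range of 1.17-fold with replicate 3 the highest. Pygb, the brain type, read 11.81, 12.09, 11.96, 11.88 and 11.98 log2 (11.94 ± 0.10), a range of 1.21-fold with replicate 1 the lowest. Pygm, the muscle type, read 8.32, 8.65, 8.18, 7.76 and 8.94 log2 (8.37 ± 0.45); its range was 2.26-fold (1.18 log2). Replicate 5 was the highest and replicate 4 the lowest for Pygm, and every replicate was above its background. The range of Pygm rested on both ends: it was 1.69-fold without replicate 4 and 1.85-fold without replicate 5.

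The 250 bases before the start of the 3 phosphorylase genes are shown because the SDs of these paralogues ran from 0.094 to 0.45 log2, although none passed the test of replicate spread given below. They come from RefSeq (GRCm38.p6), read 5′ to 3′ in the direction of the gene: Pygl at chr12:70227684-70227933 (minus strand), Pygb at chr2:150786546-150786795 (plus strand) and Pygm at chr19:6384158-6384407 (plus strand). Capitals mark matches to the motifs searched, which were the TATA box as TATAAA, the CAAT box as CCAAT, the GC box as GGGCGG, the E-box as CANNTG, the cyclic AMP response element as TGACGTCA and a MEF2-type motif as CTANNNNTAG, each on both strands.
Pygl: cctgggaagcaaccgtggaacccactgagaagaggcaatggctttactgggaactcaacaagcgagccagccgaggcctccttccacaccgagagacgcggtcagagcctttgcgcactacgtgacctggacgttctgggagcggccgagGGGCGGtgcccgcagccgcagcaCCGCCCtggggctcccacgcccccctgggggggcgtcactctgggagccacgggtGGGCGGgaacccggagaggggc
Pygb: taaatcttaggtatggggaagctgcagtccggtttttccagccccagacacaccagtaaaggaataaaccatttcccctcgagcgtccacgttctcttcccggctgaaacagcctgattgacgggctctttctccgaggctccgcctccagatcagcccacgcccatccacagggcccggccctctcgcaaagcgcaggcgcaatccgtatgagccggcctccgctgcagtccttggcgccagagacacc
Pygm: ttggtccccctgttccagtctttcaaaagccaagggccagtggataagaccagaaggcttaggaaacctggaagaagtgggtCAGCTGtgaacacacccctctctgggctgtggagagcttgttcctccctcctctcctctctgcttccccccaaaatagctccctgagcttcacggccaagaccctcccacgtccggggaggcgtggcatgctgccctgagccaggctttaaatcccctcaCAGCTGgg
Pygl held 3 GC boxes, starting 100, 77 and 22 bases before the start, and Pygm held 2 E-boxes, both CAGCTG, starting 168 and 8 bases before it. Pygb held none of the 6 motifs, and no 2 matches overlapped. Over 32851 mouse promoter windows of the same length, 32.7% held a GC box and 66.2% an E-box. CpG dinucleotides numbered 20 in Pygl, 17 in Pygb and 4 in Pygm, against a median of 6. The matches describe the sequence only; binding was not measured.

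Phosphorylase kinase turns phosphorylase on and is built from regulatory alpha and beta subunits, a catalytic gamma subunit and a further regulatory one. Phkb, the beta subunit gene, had the smallest SD of the 9, at 11.11, 11.05, 11.19, 11.13 and 11.12 log2 in replicates 1 to 5 (11.12 ± 0.052). Its range was 1.11-fold (0.15 log2), and 5.00% of the genes above background had a smaller SD.

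The alpha subunit genes Phka1 (muscle type) and Phka2 (liver type) were both called. Phka1 read 9.73, 9.58, 9.83, 9.76 and 10.03 log2 in replicates 1 to 5 at its probe set of highest mean (9.79 ± 0.16). Its other probe sets averaged 9.74 ± 0.060 and 8.56 ± 0.10 log2. Replicate 2 was the lowest in all 3 probe sets of Phka1, but the high value of replicate 5 at the first one did not recur: replicate 5 read 9.76 and 8.55 at the others, within the range of the other replicates. Phka2 read 9.65, 10.07, 10.15, 9.82 and 10.02 log2 at its probe set of highest mean (9.94 ± 0.20), with replicate 1 the lowest. The other probe sets of Phka2 averaged 4.77 ± 0.29 and 4.27 ± 0.25 log2, with differences from background of -0.75 and -1.26 log2, and were not called (limma adjusted p = 1 for both). The call for Phka2 thus rests on 1 of its 3 probe sets, and with the median over probe sets its difference from background was -0.61 log2 (limma adjusted p = 1).

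Differences between the replicates were compared with those of other genes of like signal. The variance of each gene over the 5 arrays was divided by the variance that limma fitted for its signal, with a one-sided F test adjusted over all genes. Among the 9 genes, 0 passed at an adjusted p under 0.05, and 0 at an unadjusted p under 0.05. Over all genes, 0% passed after adjustment and 5.58% (1016 genes) before it. Since the adjusted test called no gene on the array, it does not separate steady from variable genes here.

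The median SD of the 9 genes was 0.11 log2, against 0.15 for the 13567 genes above background. The variance was under the fitted one in 7 of the 9 genes, a share to be read beside 50.9% of the genes above background. Pygm had the largest ratio, an SD of 0.45 against a fitted 0.23 log2 (variance ratio 3.88, adjusted p = 0.979 in the F test on limma's fit), and 92.3% of the genes above background had a smaller SD. Phka2 followed with 0.20 against 0.16 log2 (ratio 1.68, adjusted p = 0.996 in the F test on limma's fit). The spread test thus set none of the 9 genes apart from genes of like signal. With 1 array per replicate, it cannot show whether the replicates of a gene differed.

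**Figure D2:**
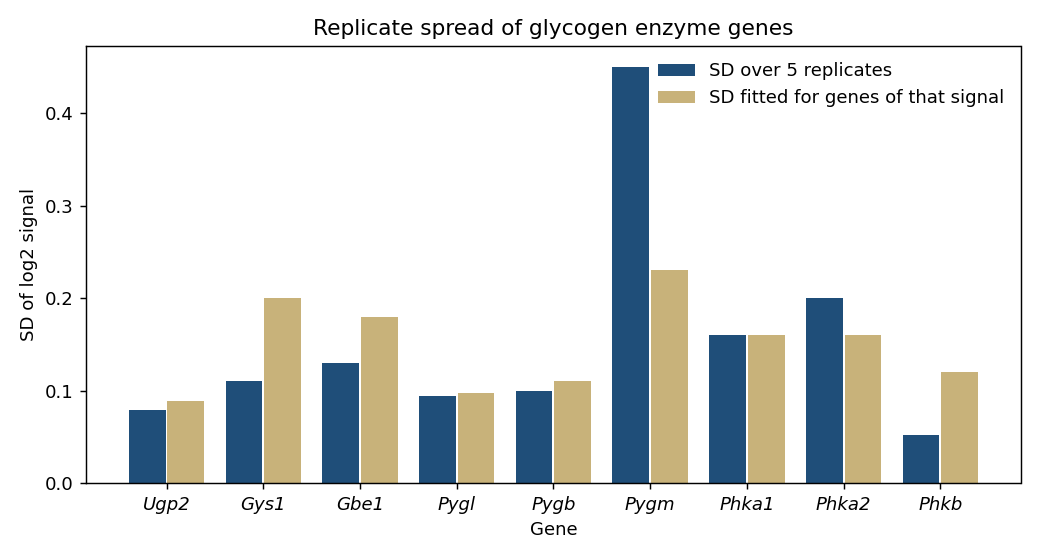
SD of the log2 signal over the 5 replicates (blue bars) beside the SD fitted for genes of the same signal (tan bars), for the 9 genes. Pygm stands at 0.45 against 0.23, while Phkb stands at 0.052 against 0.12.

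The 9 genes had no common highest or lowest replicate. For each array, the 9 genes were centred on their means, and the median of the centred values was corrected by that of every gene above background. The resulting score was -0.04, -0.07, 0.04, -0.01 and 0.02 log2 in replicates 1 to 5, spanning 0.11 log2 or 1.08-fold; without replicate 3 the range was 0.05. The highest replicate was replicate 3 for 3 genes (Pygl, Phka2 and Phkb), replicate 5 for 3 (Gys1, Pygm and Phka1), and replicates 1, 2 and 4 for 1 gene each. Over the genes above background, replicate 3 was the highest in 26.6% and replicate 5 in 21.2%.

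Marker scores of several cell types had wider ranges than the score of the 9 genes and are given beside Pygm. Relative to the median of all genes, Pygm deviated from its mean by -0.04, 0.28, -0.19, -0.59 and 0.55 log2 in replicates 1 to 5. Fibroblast markers had scores of 0.03, 0.31, -0.45, -0.16 and 0.36 log2, and smooth muscle markers -0.14, 0.30, -0.61, 0.08 and 0.32. Replicates 5 and 2 were thus the highest for Pygm and for both lists, whereas the lowest was replicate 4 for Pygm and replicate 3 for the lists. Cardiac and striated muscle markers scored 0.41, 0.35, -0.57, 0.06 and 0.32 log2, with the highest value in replicate 1. Ciliated markers scored 0.94, 0.32, -0.52, -0.37 and -0.42 log2, immune markers 0.02, -0.05, -0.45, 0.24 and 0.25, and erythroid markers 0.49, -0.47, -0.13, 0.36 and -0.26; none of these lists had both its highest score in replicate 5 and its lowest in replicate 4. Within the immune list, the B cell gene Cd79a read 7.59, 7.80, 7.64, 7.11 and 7.90 log2, highest in replicate 5 and lowest in replicate 4 as Pygm was. The T cell gene Cd3e, a weak signal with a mean 0.98 log2 above background, read 6.45, 7.03, 6.19, 6.13 and 6.72, lowest in replicate 4. Both were chosen after their values were seen. No other gene of the immune list was lowest in replicate 4, and most were lowest in replicate 3. In the cardiac and striated muscle list, 10 of 12 genes were above background. Its first 2 genes, Myh6 (8.11 ± 0.34 log2) and Myl7 (9.1 ± 1.3), were highest in replicate 5 and lowest in replicate 3. Those not above background were Ckm, the creatine kinase gene of muscle (5.36 ± 0.19 log2, limma adjusted p = 1), and Pln (4.47 ± 0.30, adjusted p = 1). Lum was the 1 fibroblast marker not called (5.42 ± 0.94, adjusted p = 0.845), and none of the smooth muscle markers missed the call. Some called markers were close to background, such as Cnn1 (0.66 log2 above it), Nppa (0.46) and Acta1 (0.79), chosen after their values were seen. Calls against the organ-restricted background are not given for the markers. The mean level of each list ran over the replicates from 9.94 to 11.09 log2 for fibroblast, 8.33 to 9.19 for smooth muscle and 6.66 to 7.83 for cardiac and striated muscle markers. The part of these cells in the values of Pygm was not tested.

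The genes above background whose 5 values lay closest to those of Pygm, by the root mean square difference of centred values over the 5 arrays, were Mzb1 (0.074 log2), Tcf21 (0.086) and Gulp1 (0.088). Tcf21, a transcription factor gene of lung mesenchyme and 1 of the fibroblast markers used here, read 11.79, 12.25, 11.58, 11.39 and 12.50 log2 in replicates 1 to 5. It was chosen for this likeness, and it was the 1 fibroblast marker of 10 that was lowest in replicate 4; the other 9 were lowest in replicate 3. Mzb1, a chaperone gene of B cells, read 6.52, 6.76, 6.44, 5.81 and 7.06 log2, and Gulp1, an adaptor gene of engulfment, 7.45, 7.83, 7.32, 6.77 and 7.88. Mzb1 was a weak signal, with a mean 0.99 log2 above background. Each of its values was under the organ-restricted background of its array (7.31 to 7.86 log2). Of the other 8 enzyme genes, Gys1 was the nearest to Pygm (0.32 log2), with 1232 genes nearer. With 5 arrays, likeness of this kind describes these samples only.

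**Figure D3:**
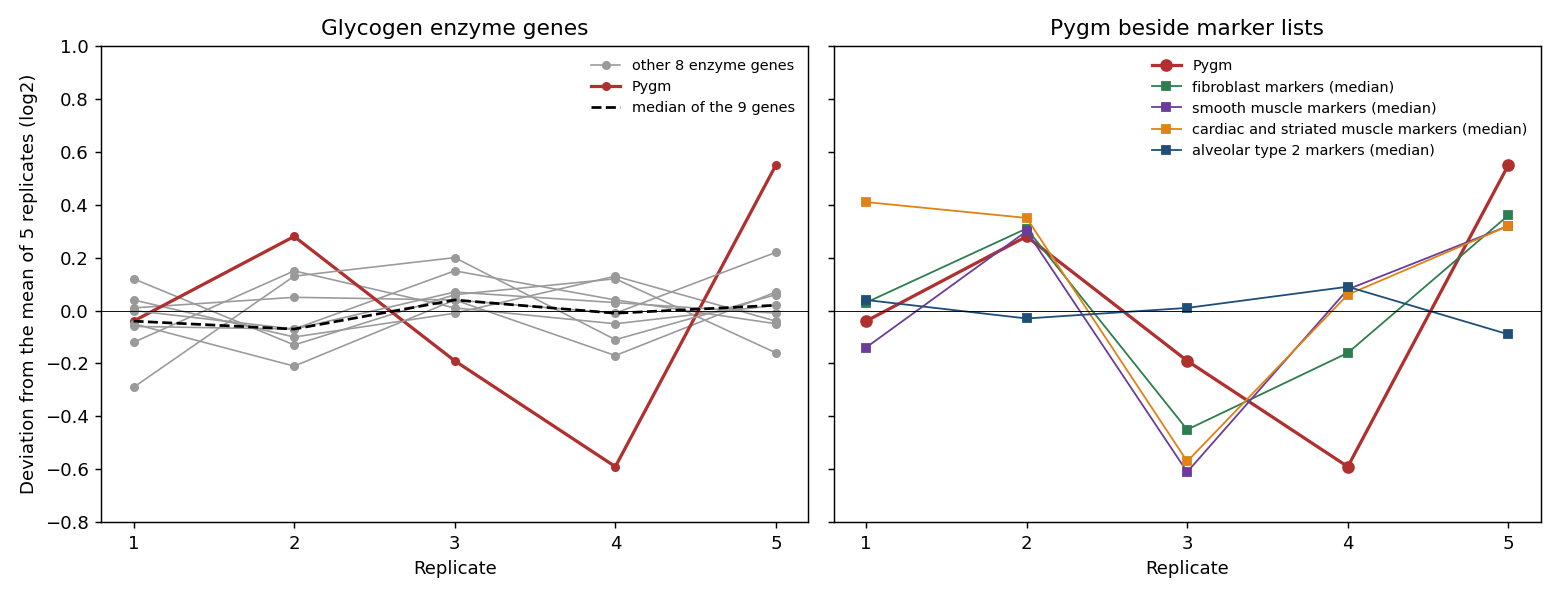
Deviation from the mean of the 5 replicates (log2, corrected by the median of every gene above background) in replicates 1 to 5; lines only join the points, and replicates have no order. Left, Pygm (red) reaches -0.59 and 0.55 while the median of the 9 genes (dashed) stays between -0.07 and 0.04; right, Pygm is drawn beside the medians of 4 marker lists, of which the alveolar type 2 markers stay between -0.09 and 0.09.

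Other genes of glycogen metabolism were listed by role. Of 30 measured genes, 24 were above background (limma adjusted p under 0.05; 74.6% of all genes), and 21 above the organ-restricted background. Across these genes too, 0 passed the adjusted spread test and 2, Gyg and Hk2, had an unadjusted p under 0.05.

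In priming and sugar activation, 4 of 5 genes were called. Gyg, the glycogenin that starts each particle, read 12.72, 13.16, 12.57, 12.74 and 12.92 log2 in replicates 1 to 5 (12.82 ± 0.23), with replicate 2 the highest (adjusted p = 0.858 in the F test on limma's fit). Pgm1, which interconverts glucose 1-phosphate and glucose 6-phosphate, had 12.24 ± 0.18 log2. The gene not called was Gys2, the liver-type synthase, at 4.13 ± 0.15 log2, a difference from background of -1.39 (limma adjusted p = 1). Of the 2 synthase genes, Gys1 was thus called and Gys2 was not.

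The catalytic subunits of phosphorylase kinase gave different calls. Phkg2, the liver and testis type, had 11.56 ± 0.11 log2 and was called (limma adjusted p = 4.33e-19). Phkg1, the muscle type, read 6.17, 5.51, 5.92, 5.52 and 5.31 log2 in replicates 1 to 5 and was not called (5.69 ± 0.35, adjusted p = 0.201). Phkg1 was called with the 90th percentile as background, and the IDs of both of its probe sets end in _s_at, _x_at or _a_at. Phkg1 and Phkg2 were not tested against each other. Gaa, the acid glucosidase that digests glycogen in lysosomes, was chosen here after its values were seen and had 10.93 ± 0.17 log2.

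Among regulators of the synthase and phosphorylase, 10 of 12 genes were called. Ppp1r3b, a subunit that targets protein phosphatase to glycogen, read 11.22, 10.84, 11.21, 10.74 and 10.96 log2 (10.99 ± 0.22). The muscle targeting subunit gene Ppp1r3a (4.10 ± 0.20 log2) and Ppp1r3g (4.76 ± 0.35) were not called (limma adjusted p = 1 for both). Both glycogen synthase kinase genes, chosen after their values were seen, gave signal, at 10.25 ± 0.12 log2 for Gsk3a and 13.34 ± 0.071 for Gsk3b.

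All 3 genes of glycogen quality and tethering were called. Epm2a, the laforin phosphatase gene, had 6.49 ± 0.19 log2 and Nhlrc1, the gene of its partner ubiquitin ligase malin, 8.02 ± 0.066. Epm2a was not above the organ-restricted background (a mean difference of -1.02 log2).

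In the supply and release of glucose 6-phosphate, 5 of 7 genes were called. Hk1, a hexokinase gene, had 9.78 ± 0.16 log2. Hk2, another hexokinase gene, read 11.20, 10.25, 10.65, 11.00 and 10.40 log2 in replicates 1 to 5, a range of 1.93-fold, with replicates 1 and 4 above the others (10.70 ± 0.40; adjusted p = 0.843 in the F test on limma's fit). G6pc, the catalytic subunit that lets liver release free glucose, had 3.53 ± 0.17 log2 and G6pc2, its pancreatic islet relative, 3.34 ± 0.20; neither was called (limma adjusted p = 1 for both). The relative found in most tissues, G6pc3, and the glucose 6-phosphate transporter gene Slc37a4, both chosen after their values were seen, were called at 8.94 ± 0.11 and 9.93 ± 0.15 log2.

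**Figure D4:**
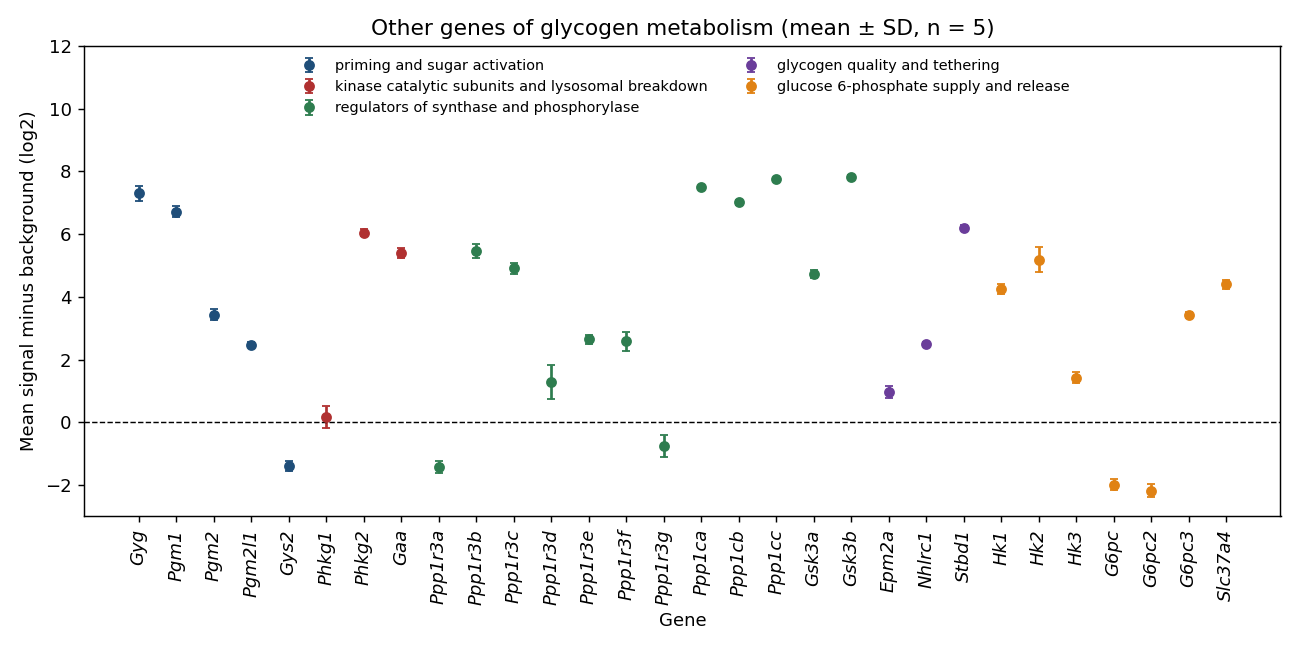
Mean log2 signal minus background (vertical axis; points, with the SD of the signal over 5 replicates as bars) of the 30 measured genes listed by role; the dashed line is the background. Gys2, Ppp1r3a, Ppp1r3g, G6pc and G6pc2 lie below the line and Phkg1 lies 0.16 above it; heights are not comparable between genes.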

How the data were processed

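The deposited values were 1 log2 signal per probe set and array; the log base was inferred from their range (2.46 to 15.24), and the sources used here name no software, background correction or normalization. Per the labels' protocols, total RNA was amplified with a NuGEN Ovation kit before biotin labelling, which can change relative signals. Values were used as deposited. Probe sets were named by a platform annotation of 2016 (34958 with 1 symbol, 932 with several, 9211 unnamed here); the 9 enzyme genes matched RefSeq symbols by gene identifier. For a gene with several probe sets the one of highest mean was used.

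Background was the 95th percentile of 77 receptor genes (symbols starting Olfr, Vmn1r, Vmn2r, Tas1r, Tas2r or Taar), 4 of which were called themselves. limma 3.58.1 (R 4.3.3; lmFit, eBayes with trend) tested values minus background, one-sided; spread was tested by F on 4 and 4.22 degrees of freedom. On simulated data the background test recovered the raised genes. After adjustment, the spread test recovered 0% of genes whose SD was raised 5-fold and 79% of those raised 20-fold. The SD of Pygm (0.45 against a fitted 0.23 log2) was a smaller increase than either. The number of arrays limits precision. Any 2 arrays shared at most 30 of 45101 values.

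The enzyme genes, lists and tests were chosen with earlier results of these data known. Named were all 9 enzyme genes, the first 2 measured genes of each role and those on the minority side of its background call. The first markers of lists and the 3 genes nearest the most variable enzyme gene were named too. Ckm, Pln and Lum, named as markers not called, were chosen after their values were seen. Any others are said to be chosen later. Alternatives were other backgrounds, normalizations, probe set rules, filters, variance models and left-out replicates.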

Additional observations from a re-analysis of the deposited data

Results flagged for a closer look

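The Phka2 probe set of second highest mean, whose mean lay below background, read 4.26 log2 in replicate 4 against 4.84 to 4.94 in the other 4 replicates, a gap large beside the range of the group (Dixon's test). The Phka2 probe set that was above background read 9.82 log2 in replicate 4, within the range of the other replicates. The fibroblast marker Lum read 3.79 log2 in replicate 3 against 5.61 to 6.16 in the others, by the same test; replicate 3 was also the lowest for the other fibroblast markers except Tcf21. These were 2 of 77 sets of values examined in this way, and chance alone flags about 1 in 20.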

How the results depend on the processing

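With the median over probe sets, 8 of the 9 enzyme genes were above background, since Phka2 was at -0.61 log2 from it. The count was also 8 without probe sets whose ID ends in _s_at, _x_at or _a_at. That rule left out the only probe set of Gbe1, which ends in _a_at. Under every other alternative run the count was 9. The range of the score was 0.05 to 0.13 log2 when 1 replicate was left out, and 0.04 without replicates 1 and 3, an alternative chosen after seeing the data. Of the other 30 pathway genes, 21 to 25 were above background over the alternatives that tested all 30. The count was 21 of 26 without probe sets of those ID endings and 24 of 24 with the filter on low signal. The count of enzyme genes past the spread test was 0 under all alternatives run. Without replicates 1 and 3, Pygm had an unadjusted p under 0.05 in that F test on limma's fit (adjusted p = 0.884); the other 8 genes did not. No paired analysis was possible because there was 1 group. Precision is limited by 5 arrays, and saturation and spot quality were not checked, since scanner files were not used here.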
